A study of Mus musculus with 8 samples.

Results

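The genes examined here encode enzymes that hydroxylate newly made collagen chains and that crosslink collagen and elastin once these have been secreted. They were chosen by name, as the rows of the deposited table for Lox, Loxl1, Loxl2, Loxl3, Loxl4, Plod1, Plod2, Plod3, P4ha1 and P4ha2, which made 10 of the 53801 genes in the table. RNA was sequenced from stromal cells of MO5 melanomas, which arise from B16 mouse melanoma cells engineered to carry ovalbumin and placed under the skin. The hosts were C57Bl/6 mice of the ADAM12-GFP line, 8 to 12 weeks old at implantation, whose bacterial artificial chromosome transgene reports Adam12 activity by GFP, and the cells were isolated on day 8. Live cells that were PDPN+ and PDGFRα+ but CD45- and CD31- were sorted into an ADAM12+ fraction (GFP+, 4 libraries) and an ADAM12- fraction (GFP-, 4 libraries). The contrast asked how ADAM12+ cells differ from the other cells of the same stromal gate.

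Both fractions came from tumours of the same cell line in hosts with the transgene, so the labels separate the groups by the reporter gate, and no untreated or tumour-free tissue entered the comparison. Sample sizes in the study count mice unless it says otherwise, so the replicates of a group are taken as separate mice. Whether the GFP+ and GFP- libraries of one number came from the same mouse is not given in the sources used here.

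Collagen chains are modified in the endoplasmic reticulum before they fold into a triple helix. Prolyl 4-hydroxylase, built from a catalytic alpha subunit (P4ha1, P4ha2) and the shared beta subunit P4hb, makes the hydroxyproline that keeps the helix stable at body temperature. Lysyl hydroxylases (Plod1, Plod2, Plod3) make hydroxylysine, which anchors sugars and sets the kind of crosslink that can form, with Plod2 acting mainly on the telopeptides at the chain ends. Outside the cell, the copper-dependent lysyl oxidases (Lox and Loxl1 to Loxl4) turn lysine and hydroxylysine side chains into reactive aldehydes from which crosslinks between fibres arise. These enzymes are known in tumours for stiffening the matrix around fibroblasts.

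Many of these genes are known targets of the hypoxia-inducible factors, which bind a short core, ACGTG or GCGTG, so the bases before the start site were read from RefSeq promoters (GRCm38.p6). The table matched 5 of the 10 members (Loxl4, Plod1, Plod3, P4ha1 and P4ha2). Over the 250 bases before the start and on both strands, each of the 5 held the core at least once, with 1 match in Loxl4 and in Plod1, 3 in P4ha1 and in P4ha2 and 4 in Plod3. Of all 32851 promoter windows of this length, 38.6% held it. G and C made up 55.6% (Plod3) to 76.0% (Loxl4) of the bases in the 5 member windows. The set of all windows was not matched to them for base content. Whether the core is more frequent in the 5 than in windows of similar content was therefore not tested. The AP-1 motif TGANTCA, present in 6.75% of all windows, was found in 0 of the 5. The windows of the paralogs P4ha1 (chr10:59323046-59323295, plus strand) and P4ha2 (chr11:54100674-54100923, plus strand) are shown because reads of these sister genes are set against each other below. Capitals mark the core on either strand.
P4ha1: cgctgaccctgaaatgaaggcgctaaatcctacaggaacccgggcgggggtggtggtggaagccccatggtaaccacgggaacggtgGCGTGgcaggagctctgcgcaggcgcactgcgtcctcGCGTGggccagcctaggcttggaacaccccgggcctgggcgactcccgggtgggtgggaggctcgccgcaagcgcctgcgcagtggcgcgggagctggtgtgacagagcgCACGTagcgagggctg
P4ha2: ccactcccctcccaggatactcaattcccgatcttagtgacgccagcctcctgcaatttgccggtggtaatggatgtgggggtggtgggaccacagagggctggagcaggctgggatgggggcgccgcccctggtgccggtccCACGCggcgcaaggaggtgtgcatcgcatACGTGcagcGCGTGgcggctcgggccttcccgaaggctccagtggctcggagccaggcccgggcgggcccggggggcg
The matches began 163, 126 and 16 bases before the start of P4ha1 and 107, 78 and 69 bases before that of P4ha2, counted from the RefSeq starts. For P4ha1 this start is also the 5′ end of the gene in GENCODE M21, but for P4ha2 it lies 829 bases inside the GENCODE gene, which opens at 54100095, so the P4ha2 window is upstream of the RefSeq transcript only. A match describes letters and not the binding of a factor, which was not measured.

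Total counts per library ran from 883144 (GFP- replicate 3) to 31666734 (GFP+ replicate 4). The members were well covered, with 43 to 21741 raw reads per member and library, the lowest for Loxl4 in GFP- replicate 3. All 10 passed the filter on low counts and received an adjusted p. Adam12 itself was 1.69-fold higher in GFP+ libraries (DESeq2 adjusted p 0.0266), with 920 to 1693 normalised counts in GFP- and 1833 to 2938 in GFP+ libraries, so the GFP- fraction still held its transcript. Ptprc and Pecam1, the genes of CD45 and CD31, were detected in every library at levels that overlapped between groups.

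Markers of other cells moved with the groups. Of 10 melanocyte genes, which the melanoma cells also use, 10 were lower in GFP+ libraries by DESeq2 at an adjusted p under 0.05, and their summed normalised count was 25480 to 74686 in GFP- against 4517 to 11858 in GFP+ libraries. None of these genes was at 0 in the mean of either group, the lowest being Oca2 with a GFP+ mean of 88.5, and 8 of the 10 were called in each of 16 alternative fits. Of 6 fibroblast genes, 4 were higher (Pdgfra, Pdpn, Dcn and Lum), and the summed count was 150274 to 291642 in GFP- against 316469 to 371962 in GFP+ libraries. GFP- replicate 4 had the highest melanocyte sum and the lowest fibroblast sum of all libraries. Col1a1 and Col1a2 carried that low sum, with 118486 counts in GFP- replicate 4 against 202331 to 260020 in the other GFP- libraries. The other 4 fibroblast genes summed to 31788 in that library, within the range of the other GFP- libraries (31622 to 36742), and to 60607 to 77273 in GFP+ libraries. The part of these differences in the results for the enzymes was not tested. In sorted bulk RNA, fewer cells of a type and less RNA per cell cannot be told apart.

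**Figure D1:**
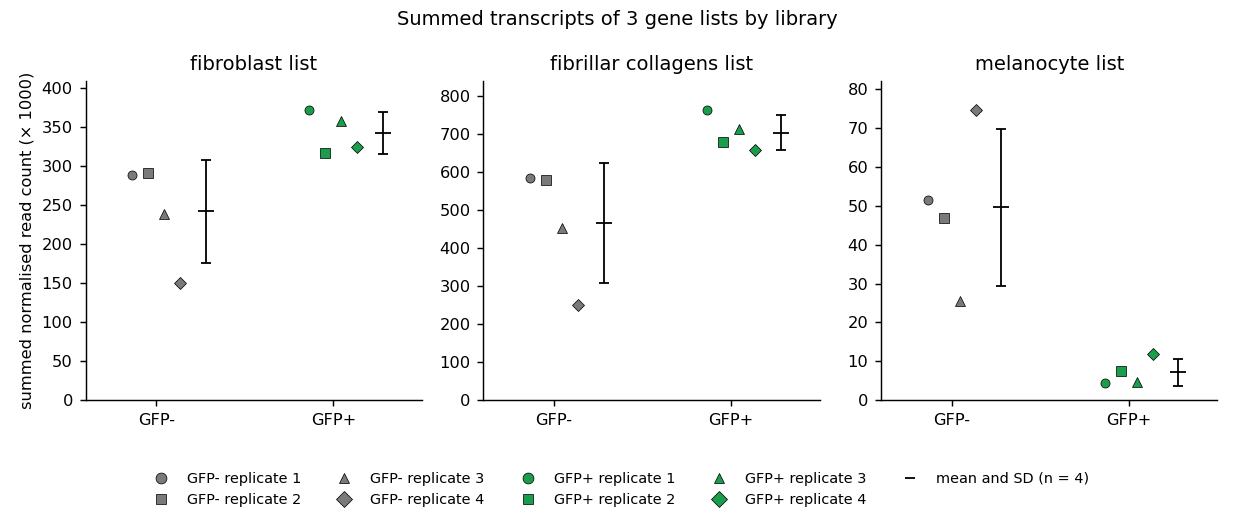
Summed normalised read count (in units of 1000, each axis from 0) of the fibroblast, fibrillar collagen and melanocyte gene lists in each library. Symbols give the replicate, grey GFP- and green GFP+, and the bar beside each group is its mean and SD (n = 4). GFP- replicate 4 (grey diamond) lies lowest in the fibroblast and collagen panels, at 150274 and 248745 counts, and highest in the melanocyte panel, at 74686. Col1a1 and Col1a2 are counted in both of the first panels, and over the other 4 fibroblast genes this library is not the lowest.

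The lysyl oxidase group contained the one member that passed the test. Lox rose 1.93-fold in ADAM12+ cells, and Loxl1 and Loxl2 had higher values in each GFP+ library than in any GFP- library without passing the test. For Loxl3 and for Loxl4 the GFP- and GFP+ means lay close together. The lysyl hydroxylases and the prolyl 4-hydroxylase subunits overlapped between the groups. By DESeq2 at an adjusted p under 0.05, 1 of 10 members was called higher, beside 4.66% of the 15283 genes tested, and 0 of 10 were called lower, beside 4.76%. At an unadjusted p under 0.05 the DESeq2 counts were 3 higher (Lox, Loxl1 and Loxl2) and 0 lower, beside 10.2% and 10.8% of all genes tested. The edgeR quasi-likelihood test called 1 member higher and 0 lower at an adjusted p under 0.05, beside 2.83% and 2.28% of 14323 genes, and limma voom the same numbers, beside 4.5% in each direction. At an unadjusted p under 0.05 both had 3 members higher and 0 lower, beside 9.21% and 8.41% of genes in edgeR and 11% and 11.4% in limma voom. The groups did not overlap for 3 of 10 members, beside 12.3% of all genes tested. The median log2 fold change was 0.31 over the members, 8 of which were positive, and -0.01 over all genes tested.

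**Figure D2:**
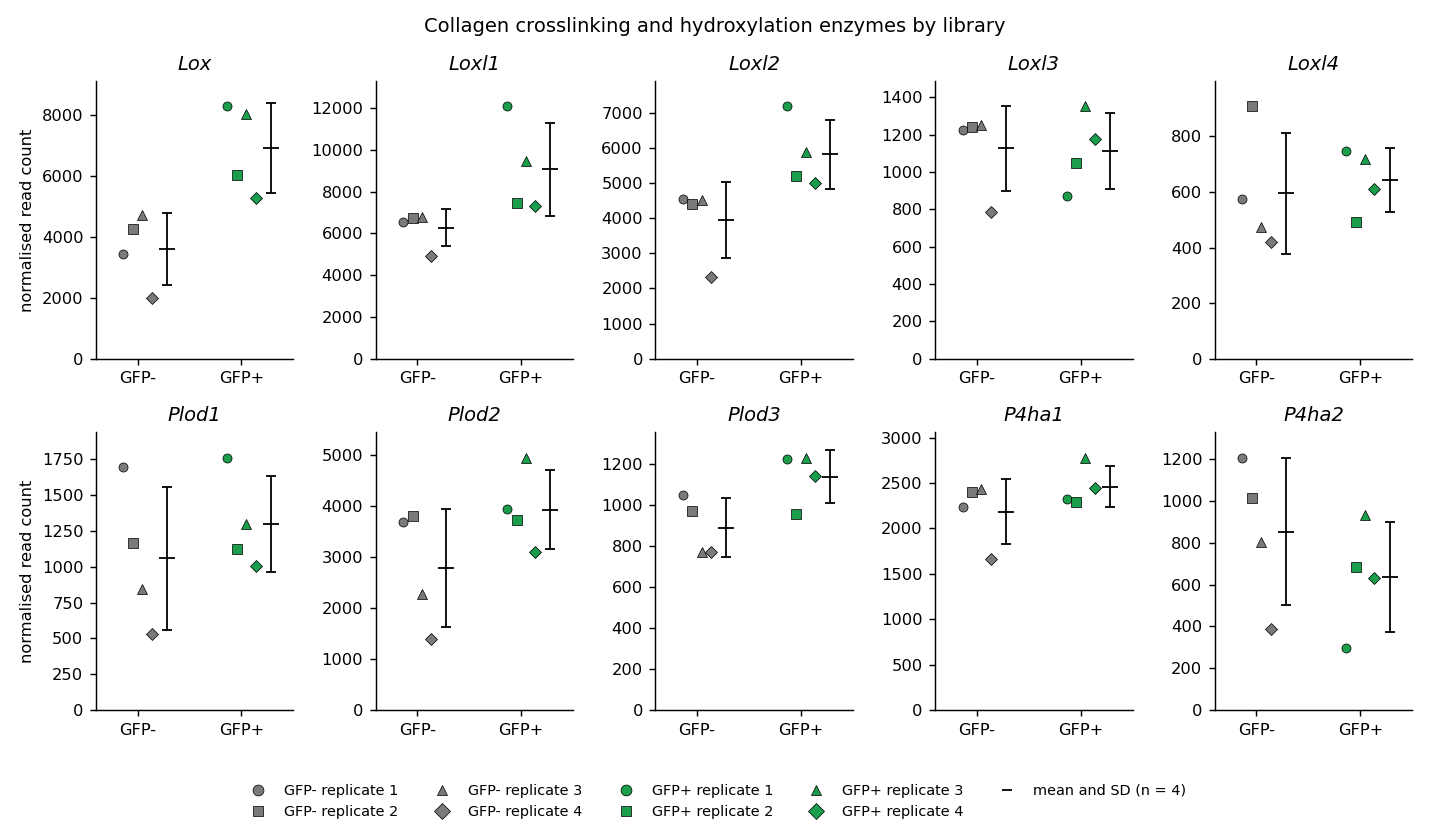
Normalised read count (y axis, from 0, own scale per gene) of each member in the 4 GFP- (grey) and 4 GFP+ (green) libraries, with symbols for the replicate and the mean and SD (n = 4) beside each group. The groups are apart for Lox, Loxl1 and Loxl2 and overlap for the other 7 genes, and GFP- replicate 4 (grey diamond) is the lowest GFP- library in 9 of the 10 panels.

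Lox, the founding lysyl oxidase, has the identifier ENSMUSG00000024529 and lies on chromosome 18, minus strand (52516067 to 52529867 in GRCm38). Its normalised counts in GFP- replicates 1 to 4 were 3423, 4247, 4703 and 2004. In GFP+ replicates 1 to 4 they were 8286, 6042, 8047 and 5277. Each GFP+ library lay above each GFP- library, with GFP- replicate 4 well under the other GFP- values. The means were 3594 ± 1185 (SD, n = 4) and 6913 ± 1484 (SD, n = 4), which makes a log2 fold change of 0.95 (SE 0.27, DESeq2 adjusted p 0.00858). The study also names Lox among the genes that rise in ADAM12+ cells, on these same libraries, so the call is not independent evidence. The log2 fold change of Lox was 0.75 (DESeq2 adjusted p 0.0123) without GFP- replicate 4 and 0.85 (DESeq2 adjusted p 0.00830) without GFP- replicates 3 and 4 together. It was 0.87 without GFP+ replicate 3, where the call was lost (DESeq2 adjusted p 0.0547).

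Loxl1, an elastin-directed lysyl oxidase (ENSMUSG00000032334, minus strand of chromosome 9, 58287738 to 58313186), had the most reads per kb of exon of all members. It had 6561, 6760, 6801 and 4939 normalised counts in GFP- replicates 1 to 4 and 12085, 7440, 9457 and 7294 in GFP+ replicates 1 to 4. The lowest GFP+ library stood just over the highest GFP- library, and GFP+ replicate 1 was far over the rest. The difference was 0.53 on the log2 scale (SE 0.21, DESeq2 adjusted p 0.0869), which did not pass the threshold. It passed with TMM factors (DESeq2 adjusted p 0.0429) and in the fit without GFP+ replicate 4 (DESeq2 adjusted p 0.0433).

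Loxl2, which oxidises type IV collagen of basement membranes (ENSMUSG00000034205, plus strand of chromosome 14, 69609068 to 69695834), had 4530, 4404, 4505 and 2328 normalised counts in GFP- replicates 1 to 4. In GFP+ replicates 1 to 4 it had 7179, 5187, 5883 and 5009. The pattern resembled that of Loxl1, with 3 GFP- libraries close together, replicate 4 far lower and GFP+ replicate 1 highest. The difference was 0.56 on the log2 scale (SE 0.24, DESeq2 adjusted p 0.130), and 0.38 (DESeq2 adjusted p 0.217) without GFP- replicate 4.

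Loxl3 and Loxl4 are the remaining lysyl oxidases of the family. Loxl3 (ENSMUSG00000000693, plus strand of chromosome 6, 83034173 to 83052562) had 1226, 1239, 1253 and 785 normalised counts in GFP- and 869, 1048, 1351 and 1178 in GFP+ replicates 1 to 4. GFP- replicate 4 lay under the GFP+ range and the other GFP- values within it, and the log2 fold change was -0.01 with a 95% interval from -0.45 to 0.43 (DESeq2 adjusted p 0.989). Its sign changed with the setting. Loxl4, the lysyl oxidase with the fewest reads per kb (ENSMUSG00000025185, minus strand of chromosome 19, 42593982 to 42612813), had 577, 909, 472 and 422 normalised counts in GFP- and 747, 493, 718 and 610 in GFP+ replicates 1 to 4. Its groups overlapped widely, with the highest value in GFP- replicate 2, and the log2 fold change was 0.09 with an interval from -0.46 to 0.65 (DESeq2 adjusted p 0.911). It was 0.38 without GFP- replicate 2 and -0.051 without GFP- replicate 4. Exons of Loxl3 share 535 bases (11.6% of its exonic length) with Htra2 on the opposite strand, and the counting used the strand. Smaller overlaps with opposite-strand transcripts touch 0.628% of the exonic length of Lox, 5.57% of Loxl2 and 6.42% of Plod2.

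**Figure D3:**
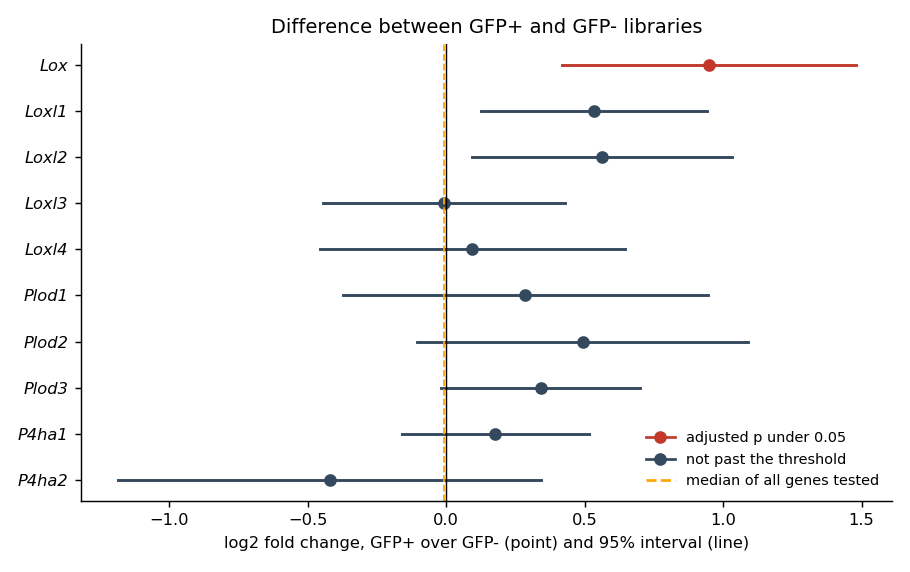
Log2 fold change of each member (x axis, GFP+ over GFP-), with the point as the DESeq2 estimate, the line as its 95% interval and the dashed line as the median of all genes tested. Lox (red) is the member past the threshold, the intervals of Loxl1 and Loxl2 lie above 0 before adjustment, and the remaining 7 intervals include 0.

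Counts per kb of exon were used to set members beside each other within a group. In GFP- libraries the mean normalised count per kb was 1900 ± 270.1 (SD, n = 4) for Loxl1, which stood apart from the next member. Lox (752 ± 248, SD), Loxl2 (729 ± 199, SD), P4ha1 (531 ± 87.2, SD) and Plod2 (518 ± 216, SD) followed, n = 4, and the range of mean ± 1 SD of each overlapped that of the next. A lower set ran from Loxl3 (245 ± 49.4, SD) over Plod3, Plod1 and Loxl4 to P4ha2 (137 ± 56.3, SD), n = 4, again with overlapping ranges. Loxl3 was apart from Plod2. In GFP+ libraries Loxl1 (2751 ± 679, SD) and Lox (1447 ± 311, SD) kept the top ranks and P4ha2 (102.04 ± 42.1, SD) the last, n = 4. The ranges of neighbours did not overlap at 3 steps, from Loxl1 to Lox, from Loxl2 to Plod2 and from P4ha1 to Plod3.

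The make-up of the lysyl oxidase family was described as each gene's percent of the family's summed count per kb, a measure that does not depend on the library's size factor. Lox took 18.1, 21.0, 23.1 and 16.0% in GFP- and 24.4, 26.2, 27.6 and 23.8% in GFP+ replicates 1 to 4. Loxl3 took 6.75, 6.35, 6.38 and 6.51% in GFP- and 2.66, 4.72, 4.81 and 5.51% in GFP+ replicates 1 to 4. The groups did not overlap for either gene, with Lox higher and Loxl3 lower in GFP+ libraries. The summed count that these shares are taken of was itself higher in each GFP+ library, and against it 1.17% of 15268 genes lay higher in GFP+ libraries without overlap and 16.7% lower, beside 1 of the 5 lysyl oxidases in each direction. GFP- replicate 4, which was low for Loxl3 in normalised counts, was among its own group in this share. The shares of Loxl1 (51.1% and 48.3% on average), Loxl2 (19.1% in both) and Loxl4 (3.75% and 2.71%) overlapped between groups. These shares were computed after the values were seen and carry no test. The balance of Lox and Loxl1, the ratio fixed for testing, was 0.522, 0.628, 0.692 and 0.406 reads of Lox per read of Loxl1 in GFP- and 0.686, 0.812, 0.851 and 0.724 in GFP+ replicates 1 to 4. The lowest GFP+ value fell just under the highest GFP- value. The mean log2 ratio differed by 0.47 (two-sided exact permutation p 0.0571, adjusted 0.171 over 3 ratios; the smallest p of this design is 0.0286).

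**Figure D4:**
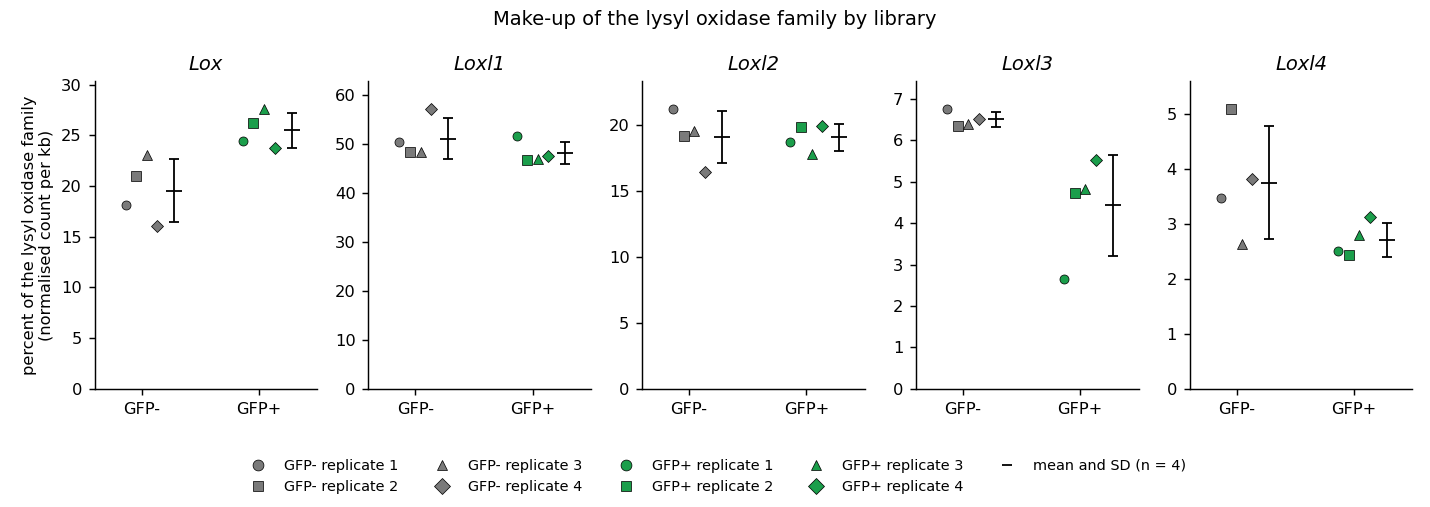
Percent of the lysyl oxidase family's summed normalised count per kb (y axis, from 0, own scale per gene) taken by each gene in the GFP- (grey) and GFP+ (green) libraries, with the mean and SD (n = 4) beside each group. Lox lies at 16.0 to 23.1% in GFP- and 23.8 to 27.6% in GFP+ libraries, Loxl3 at 6.35 to 6.75% and 2.66 to 5.51%, and the other 3 genes overlap.

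The lysyl hydroxylases overlapped between groups. Plod2, the telopeptide lysyl hydroxylase (ENSMUSG00000032374, plus strand of chromosome 9, 92542223 to 92608428), had 3693, 3805, 2274 and 1396 normalised counts in GFP- replicates 1 to 4. In GFP+ replicates 1 to 4 it had 3955, 3734, 4957 and 3097. GFP- replicates 1 and 2 lay within the GFP+ range and replicates 3 and 4 under it. The difference was 0.49 on the log2 scale (SE 0.30, DESeq2 adjusted p 0.366). It was 0.27 without GFP- replicate 4 (DESeq2 adjusted p 0.640) and 0.07 without GFP- replicates 3 and 4 together (DESeq2 adjusted p 0.897). GFP- replicate 3, the shallowest library, also had the highest summed leukocyte markers (4439 normalised counts, against 616 to 3493 in the other 7 libraries), and GFP- replicate 4 the highest melanocyte sum. Their part in the low Plod2 values was not tested.

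Plod1 (ENSMUSG00000019055, minus strand of chromosome 4, 147909753 to 147936767) hydroxylates lysines of the helical part of collagen. It had 1699, 1165, 846 and 530.0 normalised counts in GFP- and 1762, 1123, 1301 and 1002 in GFP+ replicates 1 to 4, again with the low end in GFP- replicates 3 and 4. Its log2 fold change was 0.29 with a 95% interval from -0.37 to 0.94 (DESeq2 adjusted p 0.703), and single libraries moved it widely, to 0.61 without GFP- replicate 1, 0.19 without GFP- replicate 3, 0.05 without GFP- replicate 4 and 0.11 without GFP+ replicate 1. It was -0.15 without GFP- replicates 3 and 4. Plod3, which also adds sugars to hydroxylysine (ENSMUSG00000004846, plus strand of chromosome 5, 136987019 to 136996648), had 1051, 972, 769 and 770.0 normalised counts in GFP- and 1226, 954, 1232 and 1141 in GFP+ replicates 1 to 4. Of its GFP+ libraries, replicate 2 lay within the GFP- range and the other 3 above it. Its log2 fold change was 0.34 with an interval from -0.02 to 0.70 (DESeq2 adjusted p 0.273). Its exons share 529 bases (11.7%) with Znhit1 on the opposite strand. Reads of Plod2 per read of Plod1 ran from 2.17 to 3.26 in GFP- and from 2.24 to 3.81 in GFP+ libraries, a mean log2 difference of 0.20 (two-sided exact permutation p 0.371, adjusted 0.371). This difference was 0.11 without GFP- replicate 1, 0.098 without GFP+ replicate 3 and 0.35 without GFP+ replicate 1.

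The catalytic subunits of prolyl 4-hydroxylase, whose windows are printed above, showed no difference past the threshold. P4ha1 (ENSMUSG00000019916, plus strand of chromosome 10, 59323296 to 59373304) had 2232, 2406, 2439 and 1665 normalised counts in GFP- and 2329, 2288, 2781 and 2440.4 in GFP+ replicates 1 to 4. Apart from the low GFP- replicate 4, the GFP- values lay inside or just under the GFP+ range. Its log2 fold change was 0.18 with a 95% interval from -0.16 to 0.52 (DESeq2 adjusted p 0.623), and 0.07 without GFP- replicate 4. P4ha2 (ENSMUSG00000018906, plus strand of chromosome 11, 54100095 to 54131665) had 1209, 1013, 802 and 389 normalised counts in GFP- and 296, 684, 933 and 633 in GFP+ replicates 1 to 4. Its spread within each group exceeded the difference between them, with the lowest value of all in GFP+ replicate 1, the library that was highest for Lox, Loxl1 and Loxl2. For P4ha2 the log2 fold change was -0.42 with an interval from -1.19 to 0.34 (DESeq2 adjusted p 0.599), -0.67 without GFP- replicate 4 (DESeq2 adjusted p 0.309) and -0.17 without GFP+ replicate 1 (DESeq2 adjusted p 0.862). Reads of P4ha2 per read of P4ha1 ran from 0.234 to 0.542 in GFP- and from 0.127 to 0.336 in GFP+ libraries, a mean log2 difference of -0.60 (two-sided exact permutation p 0.257, adjusted 0.371). It was -0.30 without GFP+ replicate 1.

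Transcripts of the substrate also differed between libraries, and each enzyme was also expressed as a percent of the summed reads of Col1a1, Col1a2 and Col3a1, the main fibrillar collagen chains. Their summed normalised count was 220582 to 522800 in GFP- and 593056 to 683557 in GFP+ libraries. On this scale Loxl3 stood at 0.235, 0.242, 0.312 and 0.356% in GFP- and 0.127, 0.173, 0.213 and 0.199% in GFP+ replicates 1 to 4. P4ha2 stood at 0.231, 0.198, 0.200 and 0.176% in GFP- and 0.0433, 0.113, 0.147 and 0.107% in GFP+ replicates 1 to 4. For these 2 of 10 genes the groups did not overlap, GFP+ libraries being lower, and for the other 8 they did. The collagen sum was itself higher in each GFP+ library, and 20% of the 15283 genes tested lay lower in GFP+ libraries without overlap on this scale, the same share as among the members. In normalised counts the groups overlapped for both genes, as given above. Lox averaged 0.890% and 1.09%, and GFP- replicates 3 (1.17%) and 4 (0.908%) lay among the GFP+ values of 0.890 to 1.27%. Loxl1 averaged 1.63% and 1.43%, with its highest share, 2.24%, in GFP- replicate 4. These percentages are a description without a test.

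**Figure D5:**
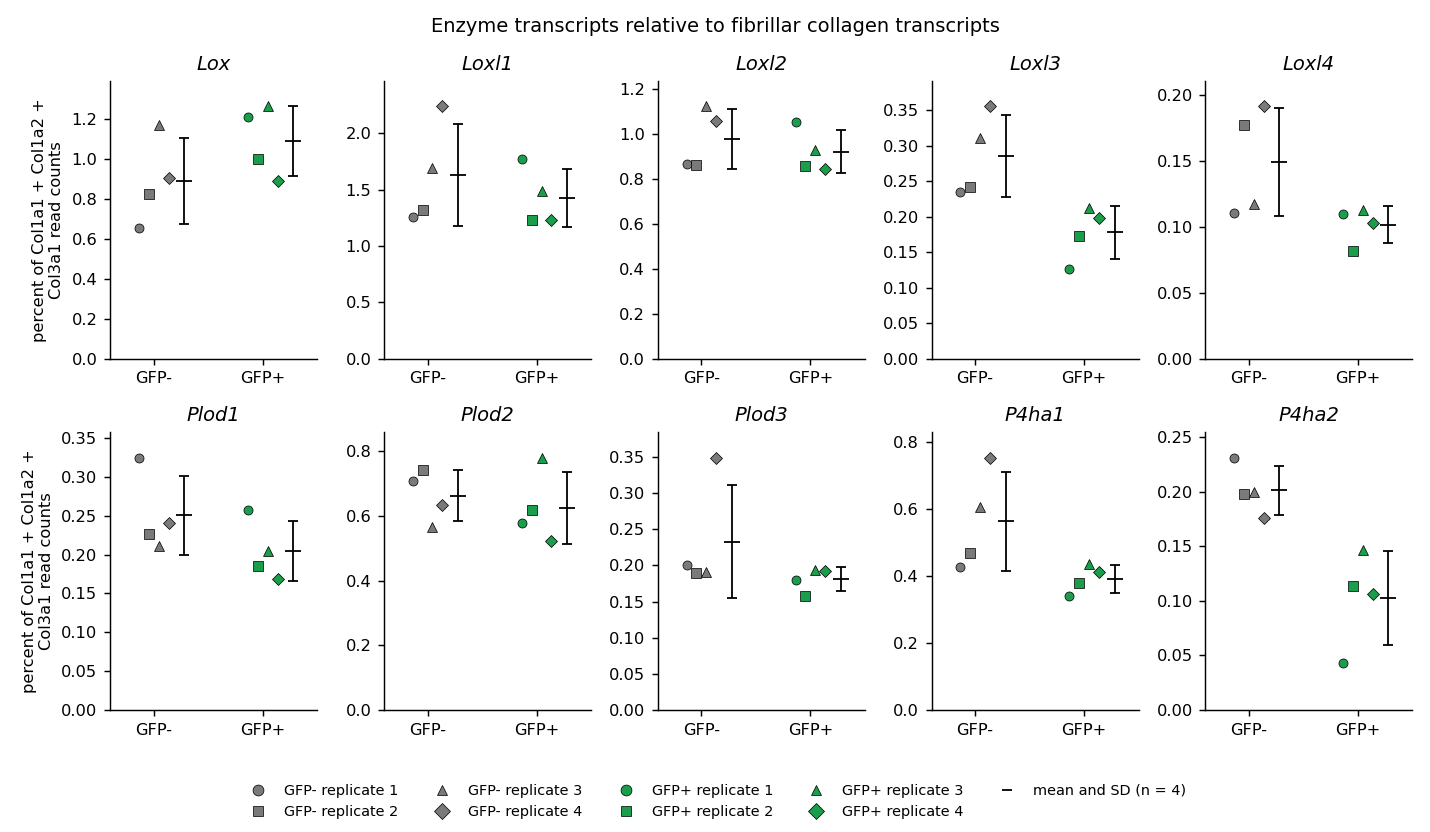
Read count of each enzyme as a percent of the summed Col1a1, Col1a2 and Col3a1 read counts (y axis, from 0, own scale per gene) in GFP- (grey) and GFP+ (green) libraries, with the mean and SD (n = 4) beside each group. Loxl3 and P4ha2 are lower in the GFP+ libraries without overlap, at means of 0.178% against 0.286% and 0.103% against 0.201%, while the other 8 genes overlap. On this scale 20% of all genes tested are lower in GFP+ libraries without overlap.

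The partner genes of the pathway were read from the same fit. Beside the counts called in the lists below, DESeq2 called 4.66% of the 15283 genes tested higher and 4.76% lower. At an unadjusted p under 0.05 these shares were 10.2% and 10.8%. Among 10 genes that share the hydroxylation and glycosylation of collagen, DESeq2 called 1 higher and 1 lower, with a median log2 fold change of 0.16. P4ha3, the alpha subunit outside the members, rose from a GFP- mean of 237 ± 155 to a GFP+ mean of 549 ± 209 normalised counts (SD over 4 libraries, DESeq2 adjusted p 0.0410), although its groups overlapped. P3h2, a prolyl 3-hydroxylase known for acting on basement membrane collagen, fell from a GFP- mean of 153 ± 101.9 to a GFP+ mean of 29.1 ± 20.05 (SD over 4 libraries, DESeq2 adjusted p 0.0174). These calls were lost in edgeR, with edgeR adjusted p of 0.0934 and 0.107. Each also rested on single libraries. P4ha3 kept its call in 2 of 8 fits with 1 library left out, when the one dropped was GFP- replicate 3 or GFP+ replicate 1, and the DESeq2 adjusted p reached 0.200 in the others. P3h2 lost it in 3 of 8, when GFP- replicate 1 or 4 was dropped and when GFP+ replicate 2 was (adjusted p up to 0.133). P4hb, the shared beta subunit, had 8706 and 8562 normalised counts on average and was not called (DESeq2 adjusted p 0.958).

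Of 11 collagen chaperones and export factors, DESeq2 called 1 higher (Fkbp7, a prolyl isomerase of the endoplasmic reticulum, from a GFP- mean of 273 ± 43.7 to a GFP+ mean of 518 ± 199, SD over 4 libraries) and 0 lower. The adjusted p of Fkbp7 was 0.0306 by DESeq2 and 0.0793 by edgeR, and it kept its call without GFP- replicate 3 or GFP+ replicates 2 or 4 but not without any of the other 5 libraries (DESeq2 adjusted p up to 0.142). At an unadjusted p under 0.05 the list had 4 higher and 0 lower genes. The count called higher was 0 by edgeR, 3 with TMM factors, 3 where a minimum mean of 10 raw counts was set and 0 to 2 when 1 library was left out, with 0 lower in each.

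Enzymes and enhancers of propeptide processing included genes that rose in ADAM12+ cells. Of 8 genes, 3 were called higher and 0 lower (3 and 0 at an unadjusted p under 0.05), beside 4.66% and 4.76% of all genes tested. The summed normalised count was 11847 to 17136 in GFP- against 22717 to 35012 in GFP+ libraries. Its rise came mainly from Adamts2 and Pcolce, given next, so it is no separate result. The 5 genes not called overlapped between groups, with log2 fold changes of -0.58 (Adamts14), -0.30 (Tll2), 0.20 (Bmp1), 0.34 (Tll1) and 0.37 (Adamts3). Adamts2, which removes the amino-terminal propeptide of fibrillar procollagens, rose by 1.21 on the log2 scale, from a GFP- mean of 6357 ± 1338 to a GFP+ mean of 14720.3 ± 3449 (SD over 4 libraries, DESeq2 adjusted p 4.45e-06). Pcolce, the enhancer of carboxy-terminal propeptide removal, rose by 1.12, from a GFP- mean of 2280 ± 89.0 to a GFP+ mean of 4960 ± 739 (SD over 4 libraries, DESeq2 adjusted p 1.02e-10). Both were called in each of the 16 alternative fits. Pcolce2 had a log2 fold change of 0.54 (DESeq2 adjusted p 0.0165) and lost its call in edgeR (edgeR adjusted p 0.0566) and when any of GFP- replicates 1 and 2 and GFP+ replicate 3 was left out (DESeq2 adjusted p up to 0.0854). Bmp1, the carboxy-terminal proteinase that also activates pro-lysyl oxidase, averaged 4010 and 4600.3 normalised counts and was not called (DESeq2 adjusted p 0.728).

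Matrix proteins that bind lysyl oxidases or their substrate fibres held the largest share of calls among the pathway lists. Of 11 such genes, 6 were called higher and 1 lower (6 and 2 at an unadjusted p under 0.05), beside 4.66% and 4.76% of all genes tested. The median log2 fold change was 0.67. Of the 4 genes not called, Fn1, Postn and Fmod had negative log2 fold changes (-0.58, -0.67 and -0.50) and Eln a positive one (0.25). Their DESeq2 adjusted p was 0.0739, 0.591, 0.881 and 0.361. Bgn and Lum, small leucine-rich proteoglycans on collagen fibrils, had log2 fold changes of 1.23 (DESeq2 adjusted p 1.52e-06) and 1.19 (DESeq2 adjusted p 9.64e-13). Thbs1, a matricellular protein, and Dcn, another proteoglycan of fibrils, had log2 fold changes of 1.08 (DESeq2 adjusted p 0.00199) and 1.03 (DESeq2 adjusted p 1.68e-10). Efemp2 and Tnxb were the other genes that rose and Fbln5, which tethers Loxl1 to elastic fibres, the gene that fell. With 1 library left out at a time the list had 6 higher and 1 or 2 lower, and without GFP- replicates 3 and 4 together 5 higher and 3 lower. Dcn and Lum also stand in the fibroblast marker list, whose sum differed between the groups as given above.

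Of 11 fibrillar collagen genes, 2 were called higher and 1 lower (4 and 1 at an unadjusted p under 0.05). Col3a1 and Col5a2 rose, with log2 fold changes of 0.80 (DESeq2 adjusted p 0.0343) and 0.68 (DESeq2 adjusted p 0.0480), and Col11a1 fell by 3.23 on the log2 scale (DESeq2 adjusted p 0.00238) from a GFP- mean of 33.1 normalised counts. The edgeR test called 0 of the 3, with edgeR adjusted p of 0.0902, 0.0983 and 0.0784. The counts of calls ran from 0 to 2 higher and from 0 to 1 lower when 1 library was left out. Col5a2 kept its call without GFP- replicate 2 or 4 only, Col3a1 lost it without GFP- replicate 3 or GFP+ replicates 1, 2 or 3, and Col11a1 lost it without GFP- replicate 2, with DESeq2 adjusted p of up to 0.132, 0.0895 and 0.101. Col1a1, the most studied substrate of the enzymes, was not called (log2 fold change 0.29, DESeq2 adjusted p 0.557). Neither was Col1a2 (log2 fold change 0.49, DESeq2 adjusted p 0.187), although its groups did not overlap.

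Other crosslinking routes and cofactor supply gave few calls. Of 4 other crosslinking enzymes, which were Pxdn, Qsox1 and the transglutaminases Tgm1 and Tgm2, DESeq2 called 0 (0 at an unadjusted p under 0.05, and 0 by edgeR and limma). Of 9 genes for copper, ascorbate and iron supply with an adjusted p, 0 were called higher and 1 lower by DESeq2 and by edgeR (0 and 2 at an unadjusted p under 0.05 in DESeq2). The latter was Tfrc, the transferrin receptor, which fell from a GFP- mean of 618 ± 187 to a GFP+ mean of 208 ± 80.7 (SD over 4 libraries, DESeq2 adjusted p 8.71e-05). Atp7a, the copper transporter that loads lysyl oxidases in the secretory pathway, and the copper chaperone Atox1 were not called (DESeq2 adjusted p 0.227 and 0.845).

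Hypoxia and TGF-β are known inducers of lysyl oxidases and collagen hydroxylases. Of 15 hypoxia targets outside the members, 2 were called higher and 2 lower (2 and 8 at an unadjusted p under 0.05), with a median log2 fold change of -0.73. The secreted factors Adm and Vegfa rose, with log2 fold changes of 0.998 (DESeq2 adjusted p 0.0104) and 0.57 (DESeq2 adjusted p 0.0386), whereas the glycolytic enzyme Ldha and the oxidoreductase Ero1l fell by 0.73 (DESeq2 adjusted p 5.98e-05) and 0.79 (DESeq2 adjusted p 0.0239) on the log2 scale. Of these, Ldha was called in each of the 16 alternative fits, Adm in 14, Ero1l in 10 and Vegfa in 8. Leaving out 1 library gave 0 to 2 higher and 1 to 4 lower. Adm lost its call without GFP- replicate 2 or GFP+ replicate 3, Ero1l without GFP- replicates 1 or 2 or GFP+ replicates 2 or 4, and Vegfa kept it without GFP- replicates 1 or 3 or GFP+ replicate 4 only, with DESeq2 adjusted p of up to 0.0626, 0.122 and 0.175. Of 9 TGF-β targets outside the members, 2 were called higher and 0 lower (2 and 0 at an unadjusted p under 0.05), with a median log2 fold change of 0.46. Leaving out 1 library gave 1 to 4 higher and 0 lower, the 4 when GFP- replicate 3 was dropped and the 1 when GFP- replicate 4 or either of GFP+ replicates 1 and 3 was. Ctgf rose by 1.76 on the log2 scale, from a GFP- mean of 89.4 ± 28.4 to a GFP+ mean of 306 ± 82.2 (SD over 4 libraries, DESeq2 adjusted p 2.11e-05). The study names Ctgf too, from these libraries. Cyr61 had a log2 fold change of 0.70 (DESeq2 adjusted p 0.0147) and lost its call when any of GFP- replicate 4 and GFP+ replicates 1 and 3 was left out (DESeq2 adjusted p up to 0.0923).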

How the data were processed

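The 8 libraries were grouped by the reporter state in their labels. Per the labels and the study's methods, the authors made them with a stranded total RNA kit (SMARTer Pico), trimmed reads with cutadapt (3.4), mapped them to GRCm38 with STAR (2.7.3a) and counted reads per Ensembl gene by strand with featureCounts (2.0.1). The authors deposited raw read counts per gene and library, which are the counts used here. The 8 columns of normalised values and the authors' comparison columns (fold changes, p-values, dispersions) were not used.

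Genes with a count were fitted with DESeq2 1.42.0 (R 4.3.3; group only, default settings, two-sided Wald test), with Benjamini-Hochberg adjustment over all 15283 genes that passed its filters and a threshold of 0.05. The default settings, adjustment and threshold follow the study's methods, which used an earlier version and do not list the terms of the model. Normalised counts are raw counts over the size factor. Exon lengths and gene positions came from GENCODE M21 (GRCm38). Ratios had 0.5 added to each count and were compared over the 70 divisions of the libraries. The code was tested on simulated data. No pair of replicates agreed within sampling noise (chi-square per degree of freedom 10.2 to 81.3). Intervals and spread reflect 4 libraries per group, and reads were not collapsed by molecular identifiers.

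The members, lists and tests were chosen with earlier results of these data known. All members are named, and of each list the called genes with the 4 largest changes. P4hb, Bmp1, Col1a1, Atp7a and Atox1 were added for their roles after their values were seen. Col1a2 and the uncalled genes of the propeptide and matrix partner lists were also added after their values were seen. Alternatives were edgeR 4.0.16, limma 3.58.1 (voom), TMM factors, count filters, a replicate block, each library left out and an adjusted p under 0.01, plus GFP- replicates 3 and 4 left out together, which was chosen after seeing the data. No batch or date is among the labels used here.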

Additional observations from a re-analysis of the deposited data

Results flagged for a closer look

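In 20 groups of 4 values (10 members in GFP- and in GFP+ libraries), the gap between the lowest or highest library and its nearest neighbour exceeded Dixon's critical share of the group's range in 3, where chance flags about 1 in 20 groups. In each the library was GFP- replicate 4, the lowest of its group. The 3 flags therefore share a library and are not independent events to set against that rate. Its normalised count was 4939 for Loxl1, 2328 for Loxl2 and 785 for Loxl3, while the other 3 GFP- libraries lay at 6561 to 6801, 4404 to 4530 and 1226 to 1253. The same library had the highest summed melanocyte markers (74686 normalised counts) and the lowest sum of Col1a1 and Col1a2 (118486), while over the other 4 fibroblast markers (31788) it was not the lowest. The part of these differences in the low values was not tested. As a share of the lysyl oxidase family its Loxl3 value, 6.51%, lay between those of the other GFP- libraries (6.35 to 6.75%).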

How the results depend on the processing

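The count of members called higher was 1 in the reported fit, 2 with TMM factors (Lox and Loxl1), 3 with a replicate block (Lox, Loxl1 and Loxl2) and 0 to 2 when 1 library was left out, with 0 without GFP+ replicate 3 and 2 without GFP+ replicate 4. It was 1 under every other alternative, and the count called lower was 0 under all. The replicate numbers did not pair the libraries: correlations of same-numbered deviations were 0.05, -0.16, -0.12 and 0.26, and not every library correlated best with its own number. The block gave 1492 calls over all genes beside 1439. With it, 1 of the other crosslinking enzymes and 4 of the fibrillar collagens were called higher, beside 0 and 2 in the reported fit. All calls numbered 732 with edgeR and 844 at an adjusted p under 0.01. The log2 fold change of Loxl3, -0.01, became 0.10 with limma voom and 0.0084 with TMM factors, and it ran from -0.15 to 0.11 with 1 library left out. That of Loxl4, 0.09, ran from -0.051 (without GFP- replicate 4) to 0.38 (without GFP- replicate 2) and was -0.22 without GFP- replicates 3 and 4, where that of Plod1, 0.29, was -0.15. The cause of these changes was not tested. Lox was called in 15 of 16 alternative fits, Loxl1 in 3 and Loxl2 in 1. The 3 ratios kept their direction under each alternative and passed no threshold, and with 1 library left out the smallest exact p is 0.0571 and over 4 pairs 0.125, so these tests say nothing on stability. GFP- replicate 3, with 43 to 619 reads per member, limits the precision of the GFP- means.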

Other observations

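Within the hydroxylases, the share of each isoenzyme in the summed count per kb overlapped between the groups. Plod2 took 58.2% ± 5.56 of the lysyl hydroxylase family in GFP- and 62.0% ± 4.19 in GFP+ libraries (mean and SD over 4 libraries), and the groups overlapped. Plod3 took 19.7 to 33.6% in GFP- libraries, with the highest share in replicate 4, and 19.7 to 25.9% in GFP+ libraries. P4ha1 took 80.2% ± 5.53 of the 2 prolyl 4-hydroxylase subunits in GFP- and 85.8% ± 4.57 in GFP+ libraries (mean and SD over 4 libraries), with the highest share, 92.3%, in GFP+ replicate 1. The summed count per kb of the 5 lysyl oxidases was 2619 to 4265 in GFP- and 4644 to 7094 in GFP+ libraries, without overlap, whereas that of the lysyl hydroxylases (508 to 1169 and 975.02 to 1384) and of the prolyl 4-hydroxylase subunits (467 to 747 and 613 to 826) overlapped. The lysyl oxidase sum is made up mostly of Loxl1, Lox and Loxl2, each already reported without overlap, so it is no separate result. These sums were computed after the values were seen and carry no test.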
